A study of Homo sapiens with 18 samples.

Results

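The responses of human leukemia cell cultures to 50 µg/ml of graphene material for 24 h were set against each other over 12 of the 18 arrays of the series. One is the response to GO, graphene oxide, on the arrays labelled as Jurkat T cells (3 Jurkat GO arrays against 3 untreated Jurkat CTRL arrays). The other is the response on the arrays labelled as THP1 monocytes treated with GONH2, graphene oxide that carries amino groups (3 THP1 GONH2 arrays against 3 untreated THP1 CTRL arrays). Jurkat is an established line of T-cell and THP1 one of monocytic origin. By its label each group is thus 1 line and not blood cells of several donors, but myeloid markers, given below, go against the label Jurkat. The pairing crosses the labels: it was chosen from measured values, because the treated means that the study lists for GO in monocytes are those of the arrays titled GONH2, and with the likeness of the responses already known. Their likeness is therefore given as a description, without a test. For each transcript the interaction, the THP1 GONH2 response minus the Jurkat GO response, was fitted over the 12 arrays, and 111 of 19455 probes tested were called as differing.

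A cell exposed to sheets of graphene oxide takes up or binds particles at its membrane, and the actin cytoskeleton, lysosomes and the stress pathways of the endoplasmic reticulum are parts of the cell that handle such contact. Transcripts of ribosomal proteins and of the respiratory chain are abundant and come from short genes that most cells use. Many transcripts of cytosolic ribosomal proteins start with a run of pyrimidines, the terminal oligopyrimidine tract, through which growth signals control their translation. Metallothioneins bind zinc and copper and are induced by metals through short metal response elements in their promoters, while chemokines such as CXCL8 and CCL5 carry the signals of activated immune cells.

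The labels of the lines were checked against markers before the responses were compared. Of 24 myeloid markers tested, 22 were detected on all 3 THP1 CTRL arrays and 19 on all 3 Jurkat CTRL arrays. ELANE, the neutrophil elastase gene, was in both sets. ITGAM and ITGAX were detected on all 3 Jurkat but on 2 of 3 THP1 CTRL arrays. The log2 intensity of ELANE was 14.52 ± 0.26 (SD, n = 3) on the THP1 and 13.63 ± 0.04 on the Jurkat CTRL arrays. Of 27 T-cell markers listed, only 12 had a probe that entered the tests, against 24 of 27 myeloid markers. Of these 12, 7 were detected on all 3 Jurkat CTRL arrays and 1 on all 3 THP1 CTRL arrays. ZAP70 and PTCRA were detected on no Jurkat CTRL array. The summed linear level of the myeloid list ran from 48413 to 51398 on the Jurkat CTRL arrays, from 70958 to 78964 after GO, from 87630 to 93766 on the THP1 CTRL arrays and from 106321 to 109001 on the THP1 GONH2 arrays. Over probes, the mean levels in the CTRL groups of both labels correlated at r = 0.977 (probes are no replicates). The summed T-cell list ran from 1121 to 1249 on the Jurkat and from 430.0 to 458 on the THP1 CTRL arrays. The part of these shifts in the responses was not tested. The myeloid markers go against the label Jurkat, so the samples are called arrays labelled Jurkat and THP1. The short names and the word line stand for those labels. In bulk samples, fewer cells of a type and less RNA per cell cannot be told apart. Median signals ran from 103 to 150 and detected probes from 15761 to 17809 per array. One array stood apart: changes from control spread over an SD of 0.74 on THP1 GONH2 replicate 2 against 0.57 and 0.59 on the others, and 0.64 to 0.73 on the Jurkat GO arrays.

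The responses ran largely in parallel. GO changed 4890 probes on the Jurkat arrays (25.1% of those tested; 12.8% higher, 2497, and 12.3% lower, 2393) and the THP1 GONH2 arrays differed from their controls in 3866 (19.9%; 9.89% higher, 1925, and 9.98% lower, 1941), each at p under 0.001 and adjusted p under 0.05 by limma. Called in both in the same direction were 2796 probes (14.4%), 1335 higher (6.86%) and 1461 lower (7.51%), which is 57.2% of the Jurkat calls and 72.3% of the THP1 calls. No probe was called in opposite directions. Of the 2094 probes called only in Jurkat, 2008 had the same sign in THP1, and of the 1070 called only in THP1, 1032 had the same sign in Jurkat. Log2 changes correlated across probes at r = 0.854 and rho = 0.803, and the SD of the changes was 0.67 in Jurkat and 0.61 in THP1. Among probes called in both, the median rise was 0.94 in Jurkat and 0.96 in THP1 and the median fall -1.32 and -1.15. Treated and control arrays did not overlap for 56.6% of probes in Jurkat, for 53.3% in THP1, and for 39.2% in both with the same direction. Without THP1 GONH2 replicate 2 the responses correlated at r = 0.818, and 2185 probes were called in both. The split by direction depended on the scaling of the arrays. With median scaling in place of quantile normalization, 15.8% of the Jurkat calls, 11.9% of the THP1 calls and 9.02% of the shared calls were higher, against 51.1%, 49.8% and 47.7%, and the median over all genes moved from 0.11 to -0.11 in Jurkat and from 0.08 to -0.18 in THP1.

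**Figure D1:**
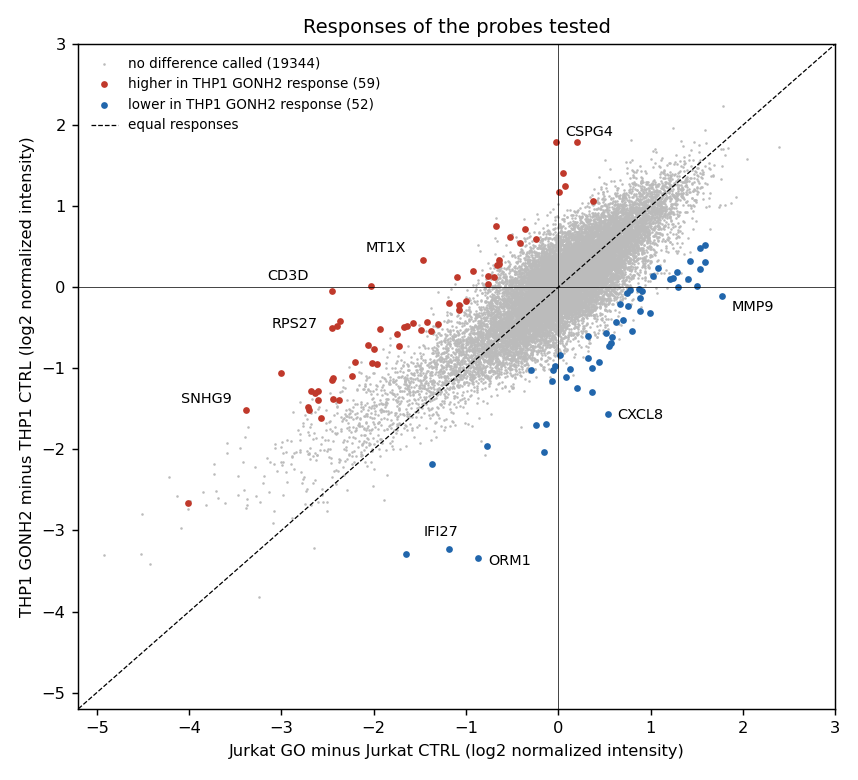
Each point is 1 of 19455 probes, with the Jurkat GO change on the x axis and the THP1 GONH2 change on the y axis, both in log2 normalized intensity; the dashed line marks equal responses. Most points follow the line, and the 59 probes in red and 52 in blue are those whose responses were called as differing.

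For 1259 of the 2796 shared probes (6.47% of all tested) the 95% interval of the interaction lay inside a 1.5-fold difference either way, and these are called alike below. Over all probes such an interval was found for 5986 (30.8%). The interval reached 0.46 to either side at the median. A call asks for a smaller p than this interval does, so a typical probe needed a difference larger than 0.46 to be called. With median scaling no interval of a shared probe lay inside this bound.

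Pairs of changes are given on the log2 scale, Jurkat first and THP1 second. The 10 largest alike rises were those of ZYX, MYO1G, INF2, MED16, INTS1, MOB3A, LRCH4, PIGQ, CASZ1 and ECM1. ZYX encodes zyxin, a focal adhesion protein that binds actin. Its log2 intensity was 9.96, 9.92 and 9.86 on the Jurkat CTRL arrays and 11.91, 11.70 and 11.63 after GO. On the THP1 arrays it was 9.57, 9.53 and 9.44 in controls and 11.14, 11.39 and 11.14 after GONH2. In either line all treated arrays lay above all controls, with changes of 1.84 ± 0.11 (SE) and 1.71 ± 0.13 and an interaction of -0.12 (95% interval -0.47 to 0.22). MYO1G, a myosin of blood cell membranes, went from 8.83, 8.89 and 8.70 to 10.54, 10.44 and 10.33 in Jurkat and from 8.95, 8.81 and 8.91 to 10.51, 10.46 and 10.29 in THP1. The levels of MYO1G before and after treatment were thus nearly those of the other line. INF2, a formin that builds and severs actin filaments, rose by 1.58 and 1.49, and of its 2 other probes 1 was called in neither line (0.22 and 0.09). MED16, a subunit of the Mediator complex, rose by 1.81 and 1.63, and INTS1, of the Integrator complex that processes RNA polymerase II transcripts, by 1.76 and 1.71. MOB3A, LRCH4, PIGQ and the zinc-finger factor CASZ1 rose by 1.47 to 1.79 in both lines, but a second LRCH4 probe, detected on all 12 arrays, was called in neither (-0.04 and 0.00). ECM1, a secreted matrix protein, stood at 10.05, 10.09 and 10.03 on the Jurkat and 7.80, 8.09 and 7.86 on the THP1 controls, and rose by 1.42 and 1.63 from these unequal levels.

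The 10 largest alike falls were those of METTL5, MTIF3, MRPL30, CETN3, YAE1, EFCAB11, KIAA1143, GTF2IRD2B, VLDLR-AS1 and C1orf53. METTL5, which methylates an adenosine of 18S ribosomal RNA, fell from 10.80, 10.85 and 10.92 to 8.81, 8.65 and 8.97 in Jurkat. In THP1 it fell from 11.07, 10.80 and 10.79 to 9.10, 8.71 and 9.09. The changes were -2.05 ± 0.11 and -1.92 ± 0.15, with an interaction of 0.13 (-0.29 to 0.54). MTIF3, the mitochondrial initiation factor, fell (-1.78 and -1.76) and MRPL30, of the large mitochondrial ribosomal subunit, did so as well (-1.79 and -1.85), though a second MRPL30 probe was called in neither line (0.36 and 0.13). CETN3, a centrin of the centriole, went from 10.08, 10.16 and 9.93 to 8.18, 8.39 and 8.36 in Jurkat and from 9.87, 10.10 and 9.86 to 8.49, 7.99 and 8.31 in THP1. The centrin fell on every treated array of either line below its controls. YAE1, EFCAB11, KIAA1143, GTF2IRD2B and VLDLR-AS1 fell by 1.69 to 2.04. GTF2IRD2B belongs to a family of near-identical copies, so its probe may read several genes. C1orf53 was not detected after GO, a fall of at least 2.81-fold in Jurkat (the bound sets the measured group mean against the lowest signal among detected probes of each array), and fell by 2.00 on the log2 scale in THP1, where it remained detected.

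**Figure D2:**
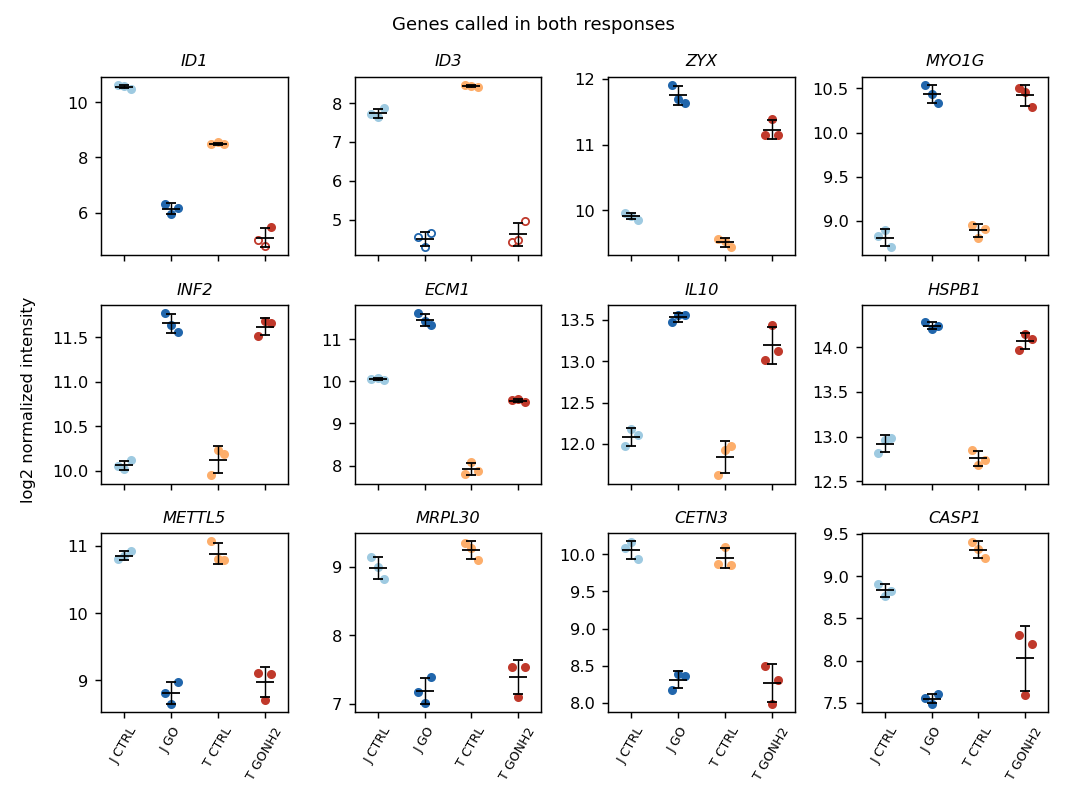
Log2 normalized intensity of 12 genes called in both responses on each of the 12 arrays (J, Jurkat; T, THP1; 3 arrays per group); filled points were detected, open points were not, and bars give the mean and SD. Each gene moves the same way in both lines, from control levels that are close for MYO1G or CETN3 and unequal for ECM1 or ID1.

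Signal and immune genes were also among those that responded alike. IL10, the interleukin that restrains inflammation, went from 11.97, 12.18 and 12.11 to 13.47, 13.56 and 13.56 in Jurkat and from 11.62, 11.93 and 11.98 to 13.01, 13.44 and 13.12 in THP1. It rose on all treated arrays, by 1.44 ± 0.10 and 1.35 ± 0.16, and IL18, a cytokine that the inflammasome matures, rose by 1.20 and 1.11. CASP1, the caspase that cuts IL18, fell by 1.28 in both lines, from 8.91, 8.76 and 8.82 to 7.56, 7.49 and 7.60 and from 9.41, 9.32 and 9.21 to 8.30, 7.59 and 8.20. The lowest CASP1 value in THP1 came from the array that stood apart. IRF1, a factor of the interferon response, rose by 0.63 and 0.76. Its calls rested on single arrays and were lost in 4 of the 6 fits that left out a Jurkat array and in 5 of the 6 that left out a THP1 array. HSPB1, a small heat shock protein, rose by 1.32 and 1.31, POLR2A, the large subunit of RNA polymerase II, by 0.97 and 0.97, and EIF4G1, a scaffold of translation initiation, by 1.31 and 1.38. With median scaling the calls of IL18, IRF1, HSPB1 and POLR2A were lost in both lines, and that of IL10 in Jurkat. TYROBP and MNDA, adaptor and nuclear proteins of myeloid cells, fell as well (TYROBP -1.06 and -1.11, MNDA -1.06 and -1.08). They do not stand for the myeloid list, whose members went both ways. Of its 24 genes 7 rose and 5 fell in Jurkat, and 2 rose and 6 fell in THP1. In both responses 1 rose and 3 fell, where 8.94% of all genes rose and 6.80% fell. The medians of the list were 0.18 in Jurkat and -0.04 in THP1.

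The inhibitors of differentiation, ID proteins, which bind and block basic helix-loop-helix factors and are targets of BMP signals, were among the genes that fell in both responses, and the fall of ID1 in Jurkat was the largest measured in that response over the 11130 genes. ID1 went from 10.62, 10.58 and 10.49 to 6.32, 5.94 and 6.17 in Jurkat and from 8.47, 8.54 and 8.49 to 5.01, 4.79 and 5.46 in THP1, where it was detected on 1 of 3 treated arrays. The falls of -4.42 ± 0.12 and -3.41 ± 0.18 gave an interaction of 1.01 (0.53 to 1.49) with an adjusted p of 0.068 by limma, and 0.017 without THP1 GONH2 replicate 2, when the gene was called. A second ID1 probe was called as differing (-3.01 against -1.06) but was not detected on any treated array, so its falls end at the background. ID3 was detected on no treated array of either line and fell at least 5.32-fold in Jurkat and at least 8.53-fold in THP1. ID2 fell (-0.93 and -0.79), alike in the lines by its brightest probe, whose THP1 call was lost in 4 of the 6 fits that left out a THP1 array. A second ID2 probe was called in both (-1.60 and -0.92). Its interaction of 0.67 (0.26 to 1.09) was not called and did not lie inside the 1.5-fold bound. SMAD3, a transducer of TGF-beta signals, rose by 0.70 and 0.84 and was named after its values had been seen. Of 18 genes of this list 3 fell and 1 rose in both responses, where 6.80% of all genes fell and 8.94% rose. None of the 18 was called in the interaction by its representative probe.

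The gene lists with the largest shares of shared falls were those of respiratory complex IV, the ATP synthase and the host genes of small nucleolar RNAs. Of 17 genes of respiratory complex IV, which passes electrons to oxygen, 13 fell in Jurkat, 10 in THP1 and 10 in both, with medians of -1.83 and -1.20. Of 18 genes of the ATP synthase, 13, 11 and 10 fell, with medians of -1.55 and -1.06. ATP5F1D, named after its values had been seen, rose in both by 1.02 and 1.32. Over all 11130 genes, 1237 fell in Jurkat and 1059 in THP1, 6.80% fell in both and the medians were 0.11 and 0.08. ATP5F1E, the epsilon subunit of the synthase, lay at 11.46, 11.39 and 11.28 in Jurkat controls and at 7.87, 7.82 and 8.04 after GO, and went from 11.42, 11.19 and 11.23 to 9.51, 8.01 and 8.66 in THP1. Every treated array was below the controls, and THP1 GONH2 replicate 2 was the lowest of its group. COX7B, of complex IV, fell (-3.08 and -2.75), and PET100, an assembly factor, fell too (-3.71 and -2.52). Of 35 complex I genes 1 rose and 14 fell in both, among them NDUFA1 (-2.90 and -1.89). Of 11 genes of complexes II and III 1 rose and 4 fell, among them UQCRB (-2.99 and -2.20), and of 24 genes of mitochondrial import 2 rose and 8 fell, among them TOMM7 (-2.27 and -1.72). Of 77 mitochondrial ribosomal protein genes 31 fell and 2 rose in both, with medians of -0.65 and -0.57, led by MRPS18C (-2.76 and -2.34).

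Of 68 cytosolic ribosomal protein genes 43 fell in Jurkat and 11 in THP1, the same 11 in both, with medians of -0.87 and -0.44. Of all 11130 genes 1237 fell in Jurkat and 1059 in THP1, and 6.80% in both. RPL34, of the large subunit, went from 9.92, 9.83 and 9.85 to 6.83, 6.79 and 6.86 in Jurkat and from 10.09, 10.24 and 10.20 to 8.40, 7.23 and 8.09 in THP1. RPL26 fell (-2.80 and -2.01) and RPL36A (-3.42 and -2.16), also with THP1 GONH2 replicate 2 lowest. Without this array 9 of the 68 were called in THP1. Genes of this family have many processed copies in the genome, and their probes may read more than 1. Of 16 host genes of small nucleolar RNAs, whose introns hold the guides of ribosomal RNA modification, 10 fell in Jurkat, 9 in THP1 and 8 in both. Of 22 Sm and LSm proteins, the rings of spliceosomal and decay particles, 2 rose and 9 fell in both, among them LSM3 (-2.72 and -2.02). The medians of these lists stayed below 0 in both lines with cyclic loess. They did so with median scaling as well, but that setting also lowered the medians over all genes, to -0.11 and -0.18, and is no check here.

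The start sites of some of these genes are shown because they carry, or lack, the terminal pyrimidine tract (RefSeq, GRCh38.p14, 30 bases of which 15 lie before the annotated start; capitals mark the unbroken run of C and T that begins at the start).
RPS27 (chr1:153990747-153990776, plus strand): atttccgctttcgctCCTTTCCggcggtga
RPL36 (chr19:5690280-5690309, plus strand): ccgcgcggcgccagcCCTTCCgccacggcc
RPL34 (chr4:108620561-108620590, plus strand): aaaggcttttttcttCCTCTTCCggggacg
RPL36A (chrX:101390996-101391025, plus strand): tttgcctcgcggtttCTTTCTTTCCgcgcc
SNHG5 (chr6:85678719-85678748, minus strand): gctgcgcacttcggtCTTTTacgtcggcct
ZFAS1 (chr20:49278627-49278656, plus strand): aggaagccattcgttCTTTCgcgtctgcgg
ATP5F1E (chr20:59032321-59032350, minus strand): cttctgtggtctgatCTTCCTgcggctgaa
COX6B1 (chr19:35648308-35648337, plus strand): cagcttccggctggtagtagttccgcttcc
ZYX (chr7:143381330-143381359, plus strand): gctccggaccgggacgcagagtctgcggac
A C at the start followed by at least 4 bases of C or T was found at 4.04% of 27305 promoters, at 5.54% of the 8970 that matched tested genes, and at 41 of 58 (70.7%) matched cytosolic ribosomal protein genes. It was found at 6 of 13 matched small nucleolar RNA host genes, at 4 of 14 ATP synthase genes and at 1 of 31 complex I genes. Within the ribosomal protein genes, the 41 with such a start had medians of -0.96 in Jurkat and -0.42 in THP1, and the 17 others -0.81 and -0.46. Of the genes that fell in both lines 8.75% of 606 had such a start and of those that rose 5.90% of 813. A match describes the letters at the annotated start and no more.

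The lists with the most shared rises were those of the cytoskeleton, of glucose use and of the lysosome. Of 38 genes of actin and focal adhesion 20 rose in Jurkat, 15 in THP1 and the same 15 in both (8.94% of all genes rose in both), 1 fell in both, and 19 had an interaction inside 1.5-fold. Of all 11130 genes 1775 rose in Jurkat and 1376 in THP1, and 4060 had such an interaction. TGFB1I1, a focal adhesion adaptor, rose by 1.93 and 1.11. Of 28 genes of glycolysis and hypoxia 14 and 13 rose, 11 of them in both. SLC2A1, a widely expressed glucose transporter, went from 10.65, 10.62 and 10.66 to 12.11, 12.05 and 12.08 in Jurkat and from 10.62, 10.62 and 10.76 to 11.51, 11.81 and 11.62 in THP1. It began at one level in both lines and rose on every treated array, by 1.44 ± 0.09 and 0.98 ± 0.13. SLC2A3, the high-affinity transporter, rose by 1.87 and 1.04 and NDRG1, a hypoxia-induced gene, by 1.56 and 1.16. Of 36 lysosomal genes 10 rose and 4 fell in both, and the medians of 0.36 and 0.37 turned to -0.01 and -0.05 with median scaling, while those of the actin and glycolysis lists stayed above 0. ATP6AP1 and ATP6V0A1 of the proton pump rose by 1.36 and 1.52 and by 1.48 and 1.08, while ATP6V1G1 of the same pump fell (-1.11 and -1.48). Of 19 genes of cholesterol synthesis 4 rose in both and none fell, among them DHCR7 (1.06 and 1.23) and MVD (0.89 and 1.49). Of 40 genes of DNA replication 8 rose and 3 fell in both, with CDT1, which licenses origins, at 1.47 and 1.80 and RPA3, of the single-strand binding complex, at -2.33 in Jurkat and falling from 11.66, 11.65 and 11.51 to 10.02, 9.10 and 9.71 in THP1.

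**Figure D3:**
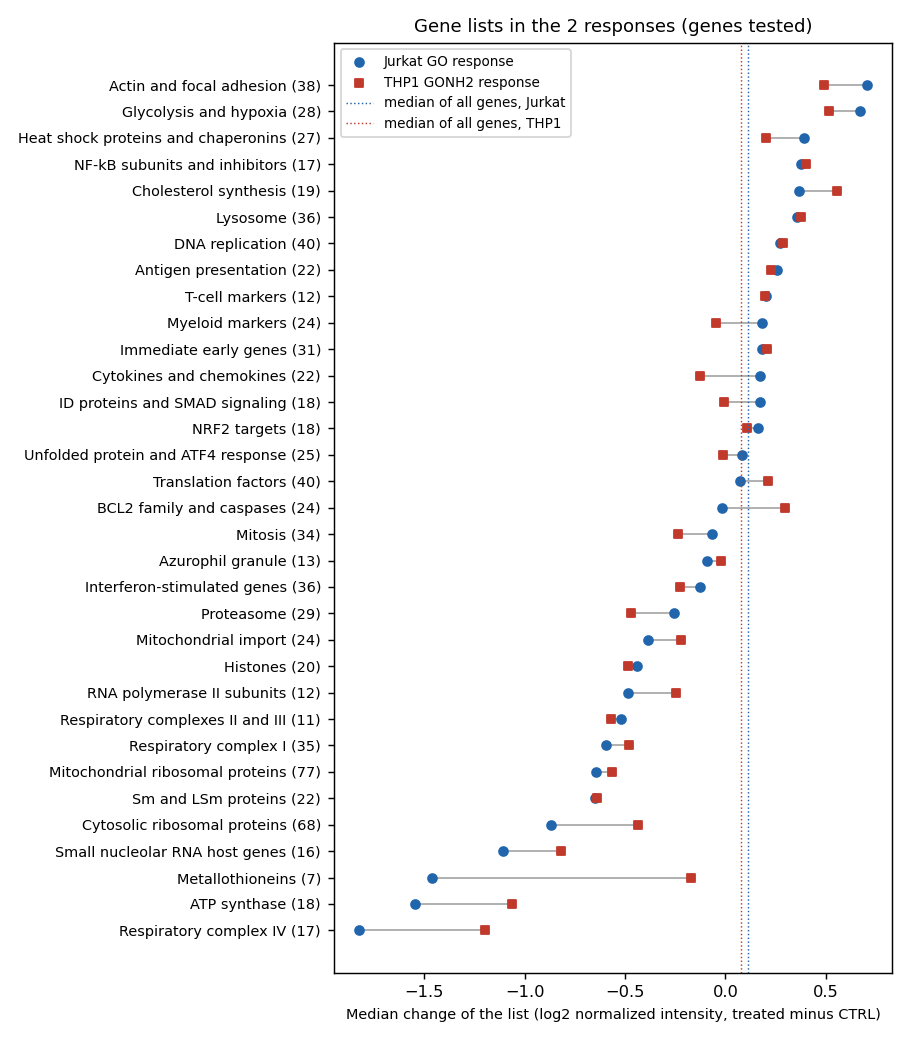
Median log2 change of each gene list in the Jurkat GO response (blue circles) and the THP1 GONH2 response (red squares), with the number of genes tested in parentheses and the medians over all 11130 genes as dotted lines. Respiratory complex IV and the ATP synthase lie lowest in both responses, actin and glycolysis genes highest in Jurkat, and the metallothioneins show the widest gap, -1.46 against -0.17.

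The interaction was called for 111 probes (0.571% of those tested), 59 of them higher (0.303%) and 52 lower (0.267%) in the THP1 GONH2 response. At an unadjusted p under 0.05 it would be 3073. Where the THP1 arrays labelled GO took the place of those labelled GONH2, 4761 probes were called (24.5%). The pairing was chosen with measured values known, so this larger count is a description and no support for the likeness. The probes nearest the threshold, with no further test, were GRPEL2, CD163L1 and ACOT8 inside (adjusted p 0.0459, 0.0459 and 0.0470) and RPL13A, TARS1 and MYL9 outside (0.05003, 0.0504 and 0.0523). Of the 59 that were higher, 38 had changes below 0 in both lines with the larger one in Jurkat, 16 had opposite signs, and 21 were called in both responses. Of the 52 that were lower, 27 had opposite signs and 5 were called in both. Control means of the lines lay over 2-fold apart for 22.5% of the 111 and for 4.25% of all probes tested. Of the 111, 9 were detected on no THP1 array and 10 on no Jurkat array. The count moved with single arrays: it was 420 without THP1 GONH2 replicate 2 (291 higher and 129 lower), and between 32 (without Jurkat CTRL replicate 1) and 112 when another array was left out.

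The list with the widest difference of medians was that of the metallothioneins, 6 of them with the zinc exporter SLC30A1. Of these 7 genes 4 were called, and all 7 interactions were above 0 (median 0.96, against -0.02 over all genes). Of all 11130 genes 32 were called as higher, and 5289 had an interaction above 0. MT1X went from 10.11, 10.02 and 10.00 to 8.39, 8.44 and 8.91 in Jurkat, whereas in THP1 it was 10.76, 10.61 and 10.67 in controls and 10.84, 11.48 and 10.73 after GONH2. It fell on all GO arrays of Jurkat (-1.46 ± 0.15), its change in THP1 was 0.34 ± 0.19 and not called, and the interaction was 1.80 (1.23 to 2.37, adjusted p 0.010 by limma). MT2A, the most widely expressed family member, stood at 9.94, 9.65 and 9.78 in Jurkat controls and 9.75, 9.94 and 9.91 after GO, which overlap. In THP1 it went from 9.59, 9.23 and 9.32 to 10.60, 10.87 and 10.41, a rise of 1.25 ± 0.16 with no overlap and an interaction of 1.18 (0.74 to 1.61). MT1H fell (-2.44 and -1.12) and MT1F by 1.49 in Jurkat with -0.53 in THP1, not called there. MT1E fell (-2.07 and -1.12), with an interaction of 0.95 that was not called (adjusted p 0.086 by limma). The genes of this family are near-identical copies, and their probes may cross-read.

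The promoters of the called metallothionein genes are shown because they hold several copies of the core of the metal response element, the sequence that the metal-sensing factor MTF1 binds. TGCACNC and TGCGCNC were searched on both strands of the 250 bases before the annotated start (RefSeq, GRCh38.p14, plus strand, chromosome 16), and capitals mark the matches. The 2 patterns cannot match at the same place on 1 strand, and no matches overlapped in these promoters. The promoter table held 3 of the 6 metallothionein genes.
MT1X (chr16:56682220-56682469): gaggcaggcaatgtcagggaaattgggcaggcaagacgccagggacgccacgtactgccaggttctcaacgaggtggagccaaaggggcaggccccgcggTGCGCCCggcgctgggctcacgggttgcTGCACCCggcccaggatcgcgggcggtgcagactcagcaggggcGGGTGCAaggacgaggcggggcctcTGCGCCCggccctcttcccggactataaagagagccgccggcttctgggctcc
MT1H (chr16:56669564-56669813): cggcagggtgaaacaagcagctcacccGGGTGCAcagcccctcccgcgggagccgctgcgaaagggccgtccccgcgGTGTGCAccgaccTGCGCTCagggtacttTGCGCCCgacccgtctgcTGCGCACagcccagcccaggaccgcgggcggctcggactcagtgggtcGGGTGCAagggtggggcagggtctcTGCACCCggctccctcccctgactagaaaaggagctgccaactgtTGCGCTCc
MT2A (chr16:56608334-56608583): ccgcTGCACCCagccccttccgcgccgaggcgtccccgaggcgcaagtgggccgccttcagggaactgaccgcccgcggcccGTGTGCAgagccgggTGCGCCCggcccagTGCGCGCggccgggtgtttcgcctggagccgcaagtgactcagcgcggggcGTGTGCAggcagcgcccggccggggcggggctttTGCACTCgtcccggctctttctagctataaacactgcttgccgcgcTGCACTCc
MT1X held 4 matches, MT1H 8 and MT2A 7, and at least 4 were found in 0.366% of all 27305 promoters and at least 1 in 24.7%. The number of matches did not order the 3 genes by their change, since MT1H with the most fell in both lines and MT2A rose in THP1. SLC30A1, named after its values had been seen, was not called in either response (-0.06 and -0.01).

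Transcripts of ribosomes, small nucleolar RNA hosts and respiration were among those that fell further in Jurkat. RPS27, of the small ribosomal subunit, lay at 14.65, 14.38 and 14.69 in Jurkat controls and at 12.18, 11.90 and 12.55 after GO, and in THP1 at 14.21, 14.28 and 14.38 and then 14.41, 13.16 and 14.05. The Jurkat groups stood apart, and the THP1 groups overlapped, with an interaction of 1.95 (1.16 to 2.73). Of the other RPS27 probes, 1 was called as well (1.94) and 1 was not (1.67, adjusted p 0.0748 by limma). The interaction of RPL36 was 0.84, from changes of -1.38 and -0.54, the latter not called. SNHG5 went from 13.46, 13.34 and 13.39 to 10.76, 10.52 and 11.00 in Jurkat and from 13.33, 13.32 and 13.39 to 12.45, 11.65 and 12.05 in THP1. This host gene began at the same level in both lines and fell (-2.64 and -1.30). SNHG9 fell (-3.39 and -1.52) and SNHG6 (-2.45 and -1.15), and SNORA12, a small nucleolar RNA, fell at least 3.15-fold in Jurkat and was detected on 1 THP1 array. Of 68 cytosolic ribosomal protein genes 59 had an interaction above 0, against 5289 of all 11130 genes, and 2 of the 68 were called. Without THP1 GONH2 replicate 2, 15 of them were called, and 5 of the small nucleolar RNA host genes in place of 3. Over all 11130 genes 128 were then called as higher and 94 as lower, in place of 32 and 37.

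In the respiratory chain the called differences were those of ATP5MC1 and ATP5MC2, which encode the same ring subunit of the ATP synthase, ATP5IF1, its inhibitor, COX6B1 of complex IV and NDUFB7 of complex I. ATP5MC1 went from 11.65, 11.44 and 11.37 to 10.11, 10.03 and 10.04 in Jurkat and from 11.49, 11.35 and 11.34 to 11.11, 10.93 and 10.84 in THP1. Treated arrays were lower in both lines, but the change of -0.43 ± 0.13 in THP1 was not called. COX6B1 fell from 12.72, 12.74 and 12.71 to 10.86, 10.73 and 11.32 in Jurkat and from 13.02, 13.08 and 13.08 to 12.55, 12.49 and 12.42 in THP1 (-1.75 and -0.57), where its call was lost in each of the 6 fits that left out a THP1 array, with the replicate number as a block and with the 12 arrays normalized alone. ATP5IF1 fell (-2.60 and -1.40), whereas a second ATP5IF1 probe was called in neither response (-0.36 and 0.12) nor in the interaction (0.48), and over the mean of both probes the interaction was not called. ATP5MC2 and NDUFB7 fell in Jurkat by 0.76 and 0.77, with THP1 changes of 0.14 and 0.04 that were not called. ELOB, of the elongin and ubiquitin ligase complexes, fell from 12.10, 11.99 and 11.90 to 9.91, 9.84 and 10.23 in Jurkat and by 0.76 in THP1, a call also lost in 4 of the 6 fits without a THP1 array. Without THP1 GONH2 replicate 2, 6 of 17 complex IV genes, 6 of 35 of complex I and 5 of 18 of the ATP synthase were called as differing, in place of 1, 1 and 3. Calls also became more frequent over all 11130 genes, with 128 higher and 94 lower in place of 32 and 37.

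**Figure D4:**
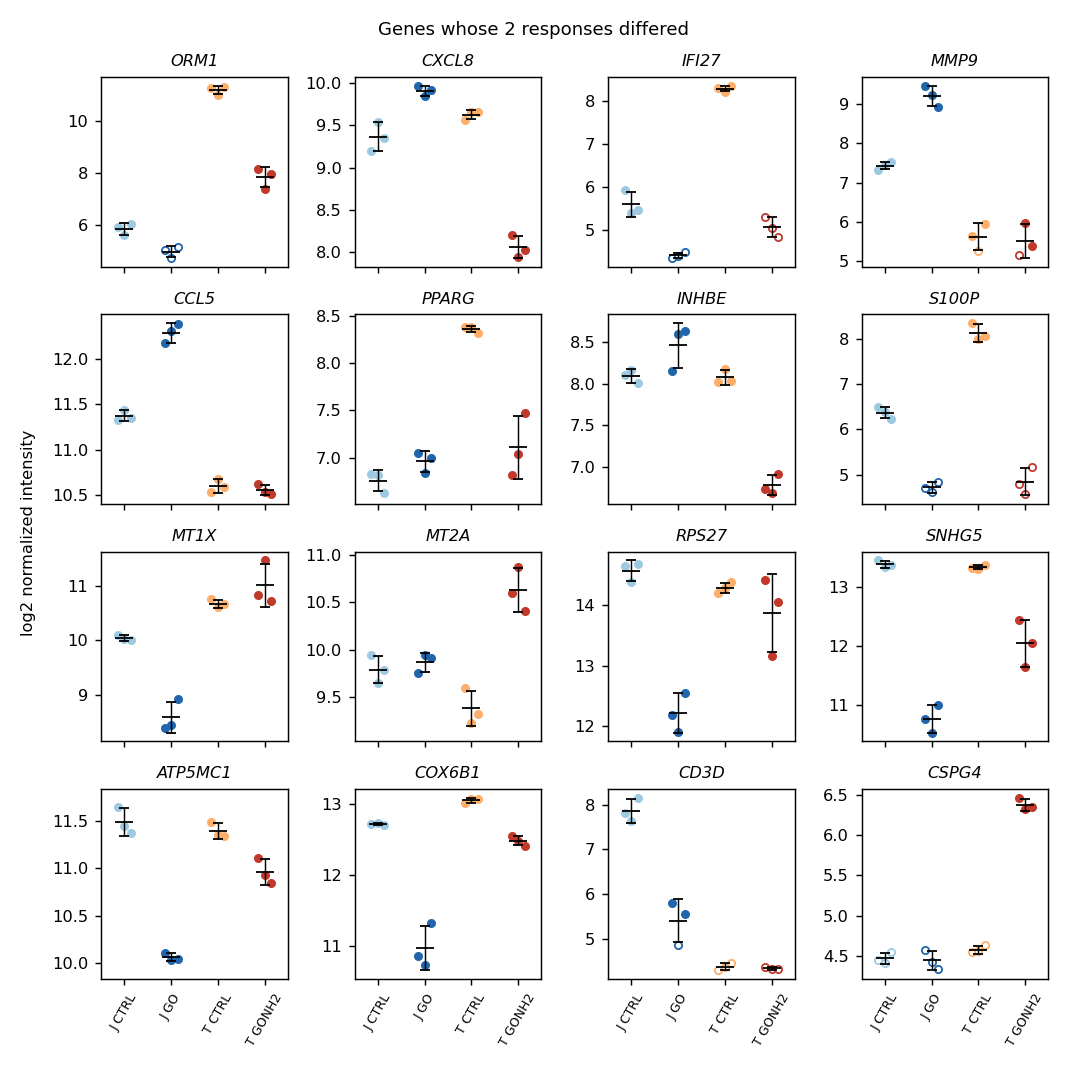
Log2 normalized intensity of 16 genes whose responses were called as differing, on each of the 12 arrays (J, Jurkat; T, THP1; filled points detected, open points not; bars, mean and SD of 3). CXCL8 and INHBE start at like levels and part after treatment, while ORM1, CD3D and CSPG4 were near the background in 1 of the lines.

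Of 22 cytokine and chemokine genes tested, CXCL8 and CCL5 were called as differing, both lower in THP1. Of all 11130 genes 37 were called as lower and 32 as higher. CXCL8, which attracts neutrophils, stood at 9.20, 9.54 and 9.35 in Jurkat controls and at 9.96, 9.84 and 9.91 after GO, and in THP1 at 9.56, 9.66 and 9.65 and then 8.20, 7.95 and 8.03. From like control levels it fell in THP1 (-1.56 ± 0.13) with no array overlapping, and its change of 0.54 ± 0.11 in Jurkat did not pass the threshold. The interaction was -2.10 (-2.45 to -1.75, adjusted p 0.000146 by limma), and a second CXCL8 probe was called as well (-1.35). CCL5, which attracts T cells and monocytes, went from 11.33, 11.44 and 11.35 to 12.17, 12.31 and 12.38 in Jurkat and from 10.53, 10.68 and 10.59 to 10.62, 10.53 and 10.51 in THP1. It rose by 0.91 ± 0.10 in Jurkat, and in THP1 the groups overlapped (-0.05 ± 0.12), for an interaction of -0.96 (-1.27 to -0.65). A second CCL5 probe, detected on all 12 arrays, did not show this rise. It changed by 0.16 in Jurkat, where the groups overlapped, and by -0.57 in THP1, where they did not. Neither change was called, and its interaction was not called either (-0.72). Of the 22 genes, 2 rose and 1 fell in both, where 8.94% of all genes rose and 6.80% fell. IL1B and CCL3L3 were called in neither response (0.26 and -0.61, 0.37 and 0.08). ZFP36L1, which destabilizes such messages, rose by 0.89 in Jurkat with -0.29 in THP1, not called there.

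Several transcripts fell in THP1 alone or fell further there. INHBE, a subunit of activin, lay at 8.10, 8.17 and 8.01 in Jurkat and 8.02, 8.18 and 8.03 in THP1 controls, and at 8.15, 8.60 and 8.63 and 6.73, 6.69 and 6.92 after treatment. Control levels of INHBE were close, and treated levels parted by an interaction of -1.66 (-2.08 to -1.25). PPARG, the nuclear receptor of fatty acid ligands, fell in THP1 from 8.38, 8.38 and 8.32 to 6.82, 7.04 and 7.47, where in Jurkat its level of 6.76 ± 0.11 (SD, n = 3) changed by 0.20 ± 0.11. ORM1, an acute-phase protein, fell from 11.25, 10.99 and 11.30 to 8.16, 7.40 and 7.97 in THP1. In Jurkat ORM1 was low, at 5.91, 5.61 and 6.04, and was not detected after GO, a fall of at least 1.44-fold whose call was lost in 5 of the 6 fits without a Jurkat array, so the interaction of -2.47 sets a measured fall against one that ended at the background. The falls of IFI27, an interferon-induced gene (at least 7.73-fold lower in THP1 and at least 1.20-fold in Jurkat), and S100P, a calcium-binding protein (at least 6.85-fold and at least 2.06-fold), ended at the background in both lines, since neither gene was detected on any treated array. Of 36 interferon-stimulated genes 2 rose and 5 fell in both, IFI6 among the latter (-2.01 and -2.45), where 8.94% of all genes rose and 6.80% fell. Of this list IFI27 alone was called in the interaction. DDIT3, the stress factor CHOP, fell (-1.24 and -1.76) without a called difference.

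Others rose in Jurkat, with no called change in THP1. MMP9, the gelatinase of macrophages, went from 7.33, 7.45 and 7.53 to 9.46, 9.24 and 8.94 in Jurkat, and on the THP1 arrays it lay near the background, at 5.63, 5.26 and 5.95 and then 5.15, 5.98 and 5.37. SULF2, a sulfatase of heparan sulfate chains, rose by 0.99 in Jurkat, with a THP1 change of -0.32 that was not called. SYNPO2L, an actin-binding protein of muscle, and PTGDS, a prostaglandin synthase, rose at least 2.31-fold and at least 1.29-fold in Jurkat from levels that were not detected, and the Jurkat call of PTGDS was lost in 5 of the 6 fits without a Jurkat array. SYNPO2L was detected on no THP1 array.

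A further set was detected in 1 of the lines. CD3D, of the T-cell receptor complex, stood at 7.80, 7.63 and 8.15 on Jurkat controls and 5.81, 4.88 and 5.55 after GO, and was detected on no THP1 array (4.31 to 4.46). Its fall of -2.45 ± 0.25 thus had no counterpart that could be measured in THP1, and the interaction of 2.41 rests on the level in Jurkat. CSPG4, a proteoglycan of the cell surface, rose in THP1 from 4.55, 4.56 and 4.64, not detected, to 6.46, 6.32 and 6.34, at least 2.00-fold, and was detected on no Jurkat array. TLR9, the receptor of CpG DNA, rose at least 2.65-fold in THP1 and was not detected in Jurkat, and CLSTN2 rose by 1.40 in THP1. TLR4, the receptor of endotoxin, CACNA2D3, of calcium channels, and LPAR6, a lysophosphatidic acid receptor, fell in THP1, the latter 2 at least 3.15-fold and at least 2.51-fold, and none of the 3 was detected on a Jurkat array.

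Of the 35 named genes called as differing, 15 kept the call in each of the 12 fits that left out 1 array: ORM1, CXCL8, IFI27, CACNA2D3, INHBE, S100P, LPAR6, SYNPO2L, PPARG, CD3D, SNHG9, CSPG4, MT1X, ELOB and ATP5IF1. CCL5, MT1H and RPL36 lost it only without Jurkat CTRL replicate 1 (adjusted p 0.0501, 0.0584 and 0.0584 by limma), and SULF2 without Jurkat GO replicate 1 or THP1 GONH2 replicate 1. COX6B1, ATP5MC1, MMP9, PTGDS and SNORA12 lost it in 3 to 5 of the 12 fits and SNHG6, TLR9, ZFP36L1, ATP5MC2, MT2A, MT1F, TLR4, CLSTN2, NDUFB7, RPS27 and SNHG5 in 6 to 10. Without Jurkat CTRL replicate 1 all of these but SULF2 were lost, and the highest adjusted p in any such fit was 0.113 (CLSTN2, by limma). No interaction of the 35 changed sign in these fits. Second probes of RPL36 (0.42), SNHG5 (0.49), ELOB (0.56), ATP5MC1 (0.95) and PPARG (-1.09) were not called in the interaction, and neither were both other probes of SULF2 (-1.19 and -0.56). The Jurkat calls of SULF2 and ZFP36L1 and the THP1 call of PSMA3 were lost in 3, 2 and 1 of the 6 fits without an array of that line.

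The lists of protein folding leaned lower in THP1 without called differences. Among 25 genes that ATF4 and the sensors of unfolded proteins induce, 7 rose and 1 fell in Jurkat and 3 rose and 6 fell in THP1, and 2 had an interaction above 0 (median -0.39, against -0.02 over all genes). Of all 11130 genes 1775 rose and 1237 fell in Jurkat, 1376 rose and 1059 fell in THP1, and 5289 had an interaction above 0. HSPA5, the chaperone of the endoplasmic reticulum, rose by 1.15 and 0.76, and TRIB3 by 0.89 and 0.61, where the THP1 call was lost in each of the 6 fits without a THP1 array. Of 27 heat shock and chaperonin genes 9 rose in Jurkat and 4 in THP1, and 4 had an interaction above 0. HSPE1, the small mitochondrial chaperonin, fell (-2.40 and -1.48), with its THP1 call lost in 4 of the 6 fits without a THP1 array. Proteasome genes fell in 5 of 29 cases in both (SEM1 -2.95 and -2.03, PSMA3 -0.87 and -1.06), those of mitosis in 4 of 34 and histones in 3 of 20, where 6.80% of all genes fell in both. No proteasome gene, 1 gene of mitosis and 1 histone gene rose in both.

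Gene length, which the choice of genes did not use, is given for each class as a description. The span of a gene on the genome, from start to end with introns, was known for 11124 of 11130 genes, with a median of 27369 bases. Genes that fell in both lines had a median span of 14652 bases and those that rose in both 23370.5, and the genes called as higher in THP1 had 3418.5 (32 genes) and those called as lower 11144 (37 genes). The share of genes that fell in both declined from 11.0% in the 20% of genes with the shortest spans to 3.06% in the 20% with the longest. The share that rose did not decline in order: from shortest to longest it was 7.96%, 11.5%, 10.7%, 7.78% and 6.79%. Of the genes called in the interaction, 32 were in the 20% with the shortest spans, then 18, 4 and 5, and 10 in the 20% with the longest. Across genes, which are not independent replicates, the log10 span correlated at 0.214 with the Jurkat change, 0.104 with the THP1 change and -0.218 with the interaction. Genes that changed in both also had higher levels in controls, with a median of 9.67 for those that fell and 9.13 for those that rose against 7.81 over all genes, and the part of this level in the relation was not tested. The GC content of the promoter, from 250 bases before to 50 after the start, was 61.0% at the median for genes that fell in both, 67.7% for those that rose and 65.0% over all genes with a promoter.

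**Figure D5:**
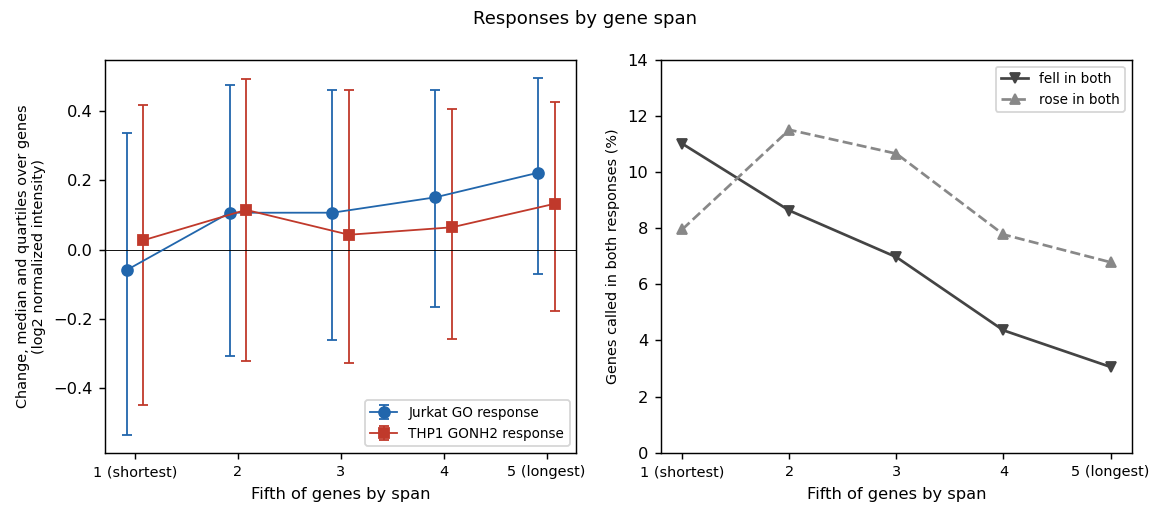
Left, median and quartiles of the log2 change over genes in 5 bins of gene span, each with 20% of the genes, for the Jurkat GO (blue) and THP1 GONH2 (red) responses; right, percent of genes that fell or rose in both. The median Jurkat change is -0.06 in the shortest and 0.22 in the longest bin, that of THP1 0.03 and 0.13, and quartiles overlap throughout.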

How the data were processed

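The series holds 18 BeadChip arrays (Illumina HumanHT-12 v4), of which 12 were used, 3 in each of 4 groups taken from the labels. The intensities in the first table are linear signals per probe, exported by the authors from GenomeStudio and deposited without normalization. The authors deposited beside each signal a detection p-value, which compares the probe with the negative controls of its array. A second deposited table holds intensities that the authors normalized in GenomeStudio, by a kind of normalization not given in the sources used here, and served as an alternative. Signals of all 18 arrays were background-corrected, quantile-normalized and log2-transformed together with neqc in limma 3.58.1 (R 4.3.3, offset 16), and 19455 of 47217 probes entered the tests, those whose detection p was below 0.01 on 3 or more arrays. Of all probes 30106 carried 1 symbol, 8 several and 17103 none; symbols were updated through gene IDs for 30067. A gene was represented by the brightest of its tested probes, by the mean of the 12 arrays.

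Each response was fitted with limma on its 6 arrays and the interaction on the 12, and transcripts were called at p under 0.001 and adjusted p under 0.05 (Benjamini-Hochberg over all probes tested), the thresholds of the study. Fold changes against groups with no detected array are lower bounds against the lowest signal among detected probes. The p-values measure the spread between the 3 arrays of a group, which may be technical, and this number limits precision. Genes were named by rule: the 12 largest interactions in each direction, the 10 largest alike rises and falls, up to 3 members per list called in both, all members called in the interaction, and 8 genes of the study. Members and lists were chosen with earlier results of these data known. Alternatives were other normalizations, filters and fits, and leaving out each array; the values of lists and named genes without THP1 GONH2 replicate 2 were added after the data had been seen. The fits were tested on simulated data.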

Additional observations from a re-analysis of the deposited data

Results flagged for a closer look

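A test of the difference between the responses picked out 111 probes, with limma over the 12 arrays, and 35 of the genes named above are among them. All values are the THP1 GONH2 change minus the Jurkat GO change on the log2 scale. Values above 0 were those of CD3D (2.41), RPS27 (1.95), SNHG9 (1.87), CSPG4 (1.82), MT1X (1.80), TLR9 (1.59), SNORA12 (1.41), CLSTN2 (1.36), SNHG5 (1.34), MT1H (1.33), SNHG6 (1.30), ELOB (1.24), ATP5IF1 (1.21), COX6B1 (1.18), MT2A (1.18), ATP5MC1 (0.99), MT1F (0.96), ATP5MC2 (0.91), RPL36 (0.84) and NDUFB7 (0.80). Values below 0 were those of ORM1 (-2.47), CXCL8 (-2.10), IFI27 (-2.04), MMP9 (-1.89), CACNA2D3 (-1.88), INHBE (-1.66), S100P (-1.63), LPAR6 (-1.55), SYNPO2L (-1.49), PPARG (-1.45), PTGDS (-1.34), SULF2 (-1.32), ZFP36L1 (-1.18), TLR4 (-0.97) and CCL5 (-0.96). These differences are the ones by which the genes were chosen, so they carry no further support. Groups of 3 arrays were too small to look for single outlying values.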

How the results depend on the processing

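Against 111 differing probes in the fit reported above, 512 were called with the authors' normalized values, 506 without background correction, 379 with an offset of 50, 33 with median scaling, 284 among probes detected on all 12 arrays, 399 in a fit of all 18 arrays and 401 with limma-trend and a robust prior. The Jurkat response (4890) held 9281 calls by adjusted p alone, 2016 with a 2-fold change added and 3142 over means of a gene's probes. The THP1 response (3866) held 8180 by adjusted p alone, 1746 with the 2-fold change and 5908 in the fit of 18 arrays. Calls in both (2796) became 6125, 1250 and 4368 in that order and 1841 over means of probes. The 1259 shared probes inside 1.5-fold became 3192, 3220, 2537 and 0 with the authors' values, no background correction, offset 50 and median scaling, 2317 with 18 arrays, 2168 with the robust prior, 2690 by adjusted p alone and 374 with the 2-fold change. Leaving out 1 array gave 32 to 420 differing probes, 3441 to 4890 Jurkat calls, 2524 to 3866 THP1 calls, 2012 to 2545 in both and 704 to 1015 inside 1.5-fold. Each response was fitted on its own 6 arrays, so its upper end is the full count, and without 1 of those arrays it was 3441 to 4089 in Jurkat and 2524 to 3065 in THP1. The cause of these moves was not tested, other than fewer arrays or probes where the setting removes them.

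With the replicate number as a block, 99 probes differed and 4010, 3401, 2404 and 1088 were called in Jurkat, THP1, both and both inside 1.5-fold. The numbers may pair the arrays, and the main fits did not use them. Deviations from the group means correlated best with an array of the same number for 11 of 12 arrays. Over 18 same-numbered pairs these correlations were -0.07 to 0.18, 5 of them over 0.1. With the block both IRF1 calls, the Jurkat call of PTGDS and the THP1 calls of TRIB3, ELOB and COX6B1 were lost. The interactions of MT1F, NDUFB7 and TLR4 also lost their calls. Of the 35 named differences 16 kept their call under every other setting and 18 lost it with median scaling. No called response or interaction of a named gene changed sign. Dim probes limit the folds that end at the background.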
